A study of Mus musculus with 12 samples.

Results

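The carriers described here move inorganic ions and metals across membranes: bicarbonate, chloride, sulfate, protons, sodium, potassium, calcium, phosphate, magnesium and zinc. They were chosen by gene symbol alone, as the genes of solute carrier (Slc) families 4, 8, 9, 12, 20, 24, 26, 30, 34, 39 and 41, with Slc4a1, Slc12a2, Slc24a1 and Slc24a5 left out. The rule found 53 of the 13942 genes in the table, in 10 of the 11 families, and members of the Slc34 family were not analysed here. Of the 53, 51 were above the table's lowest value in at least 3 libraries and could be tested.

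RNA with a poly(A) tail was sequenced from mouse retinal pigment epithelium (RPE), the pigmented cell layer between the photoreceptors and the choroid. The 12 libraries formed 4 groups of 3: postnatal day 5 (P5) Sox9 conditional knockout (cKO), P5 wild type (WT), embryonic stage E15.5 cKO and E15.5 WT, all of strain C57BL/6J. Libraries titled kd carry the genotype label Sox9.cKO and are called cKO here. The Cre line, the deleted exons of Sox9 and the isolation of the RPE are details not given in the sources used here, and nothing states that replicates came from separate animals, so p-values measure the spread between these libraries, which may be technical. The values are gene counts that the authors quantile-normalised, called normalised counts below, with every value under 50 set to a floor of 50. A gene at 50 was at or under that floor, and sequencing depth is unknown.

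The RPE is a transporting epithelium. It moves chloride, bicarbonate and water from the retina toward the blood, clears carbon dioxide and acid released by photoreceptors, and sets the potassium and calcium around their outer segments. Bicarbonate carriers (Slc4, Slc26) work with carbonic anhydrases and are driven by the sodium-potassium pump, while zinc, which is abundant in pigmented eye tissue, is moved out of the cytosol by Slc30 proteins and into it by Slc39 proteins.

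Sox9 itself went against the genotype label at P5. It had 2136, 2384 and 2928 normalised counts in the P5 libraries labelled cKO, against 964, 1499.5 and 1111 in P5 WT, a log2 fold change of 1.07 ± 0.17 (SE; adjusted p = 0.0316, limma). At E15.5 the genotypes overlapped, with 1034, 990 and 1006 in libraries labelled cKO and 1156, 1060.3 and 932 in WT, and counts over a whole gene do not show which exons are present. Directions by genotype below are therefore those of the labels. Of 18 listed RPE markers 16 were in the table, and Kcnj13, Lrat and Rpe65 were at the floor in all E15.5 libraries, Rpe65 also in all P5 cKO libraries. The 16 had a mean log2 value of 8.66 to 8.99 in E15.5 cKO and 9.23 to 9.56 in E15.5 WT. At P5 it was 11.09 to 11.64 in cKO and 10.83 to 12.09 in WT. Markers of other cells were present too and differed between P5 libraries: over 23 of 25 listed photoreceptor genes the mean log2 value was 6.95, 10.36 and 9.32 in P5 cKO and 6.94, 8.10 and 11.10 in P5 WT replicates 1, 2 and 3. Their summed level ranged from 4302 to 67227 in P5 cKO and from 4267 to 132734 in P5 WT, while 21 of the 23 were at the floor in all E15.5 cKO libraries and 20 in all E15.5 WT libraries. Endothelial markers were also higher at P5 than at E15.5, and erythroid markers lower, by mean log2 value. Summed markers of pericytes, smooth muscle and mesenchyme were 480396 to 549806 in E15.5 cKO and 370338 to 565580 in E15.5 WT. Summed RPE markers there were 25331 to 41449 and 32746 to 46305. Whether such shifts underlie the age differences of carriers was not tested. In bulk RNA, fewer cells of a type and less RNA per cell cannot be told apart.

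Carriers differed by age, and none passed the threshold by genotype label. Between E15.5 and P5, 12 of the 51 tested carriers changed in WT, 10 higher and 2 lower at P5, and 16 changed in cKO, 14 higher and 2 lower (adjusted p under 0.05 over all 13523 genes tested, limma). The share called was 23.5% of carriers in WT, where 38.2% of all tested genes were called, and 31.4% in cKO, where 43.7% of all genes were called. By direction, 19.6% of carriers were higher at P5 in WT, against 15% of all genes, and 3.92% were lower, against 23.2% of all genes. In cKO 27.5% were higher, against 17.6% of all genes, and 3.92% were lower, against 26.1% of all genes. The median log2 fold change with age was 0.26 over the carriers and -0.07 over all tested genes in WT, and 0.23 and -0.08 in cKO. For genotype, 0 carriers were called at P5, where 0.244% of all genes were called, and 0 at E15.5, where 0.00739% were.

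**Figure D1:**
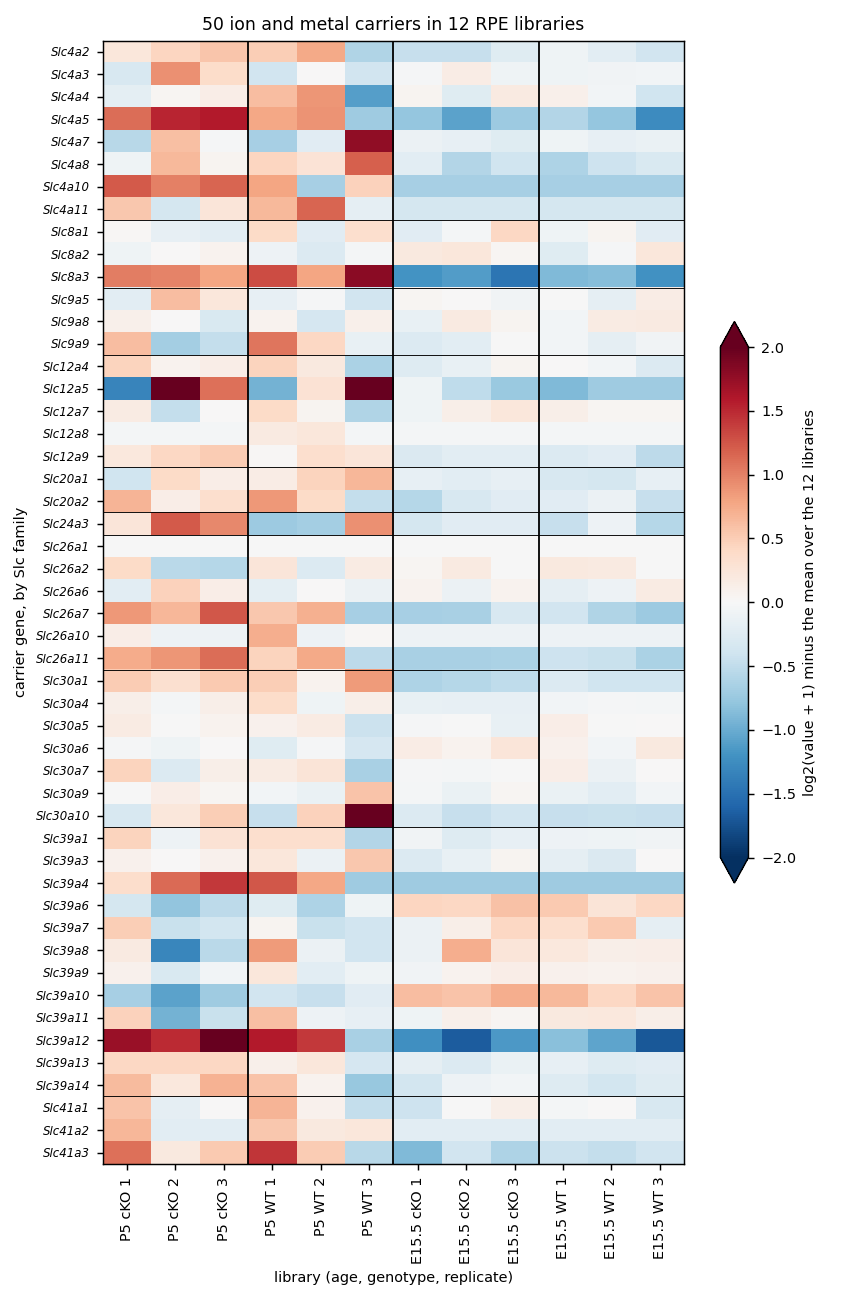
Each row is one of 50 carriers, grouped by Slc family, and each column one library. Colour shows log2(value + 1) minus that gene's mean over the 12 libraries, cut at plus or minus 2. The columns split by age, with Slc4a5, Slc8a3 and Slc39a12 higher at P5 and Slc39a6 and Slc39a10 lower, and P5 WT replicate 3 departs from the other P5 libraries in both directions.

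Of the carriers called, 8 were called in both genotypes in the same direction and 0 in opposite directions. They were Slc4a5, Slc4a10, Slc8a3, Slc12a9, Slc30a1 and Slc39a12, all higher at P5, and Slc39a6 and Slc39a10, both lower. These 8 are 66.7% of the WT list and 50% of the cKO list. Over all tested genes the 4400 called the same way in both genotypes are 85.1% of the WT list and 74.5% of the cKO list.

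**Figure D2:**
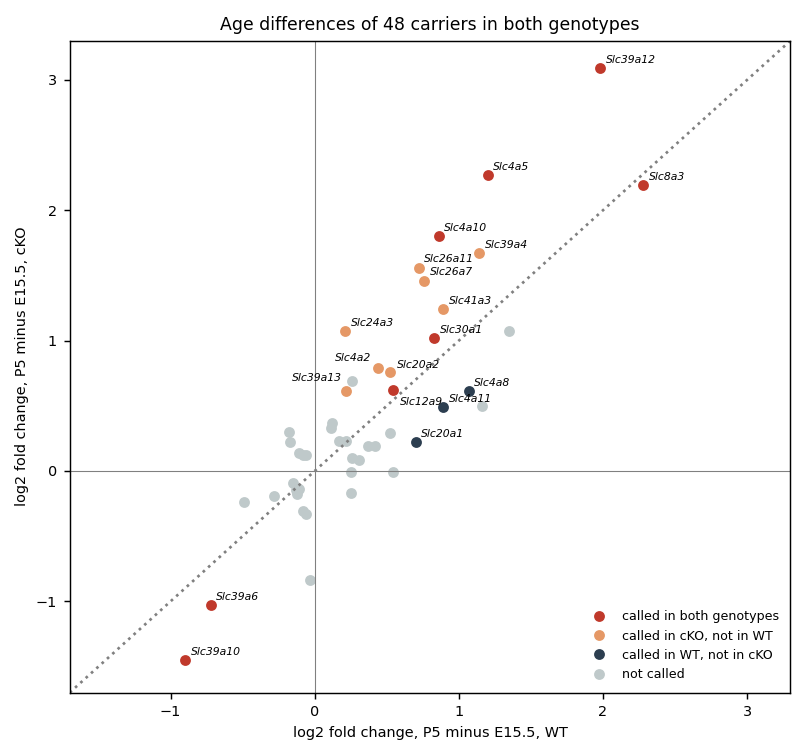
Each point is one of 48 tested carriers, placed by its log2 fold change between P5 and E15.5 in WT (horizontal) and in cKO (vertical), with colours for the genotypes in which limma called it. The dotted line marks equal differences. Slc39a12, Slc4a5 and Slc4a10 lie above the line, Slc8a3 close to it, and Slc39a10 and Slc39a6 at the lower left.

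The bicarbonate carriers of family Slc4 held the member with the highest mean level, which was the most abundant at P5 but not at E15.5. Per kilobase of exon and over all 12 libraries, Slc4a5 ranked first of the 53 with a mean of 791 normalised counts per kb, followed by the zinc importer Slc39a1 with 715, Slc26a7 with 270.3, Slc4a2 with 268 and Slc39a13 with 209.6. In P5 cKO Slc4a5 stood at 1635 ± 277 per kb, against 852 ± 417 in P5 WT, 337 ± 41.7 in E15.5 cKO and 339 ± 75.8 in E15.5 WT (SD, n = 3 each). Slc39a1 stood at 822 ± 152 per kb in P5 cKO, 749 ± 243 in P5 WT, 628 ± 40.5 in E15.5 cKO and 662 ± 7.02 in E15.5 WT. Its level was thus above that of Slc4a5 in all 6 E15.5 libraries and in P5 WT replicate 3, and below it in the other 5 P5 libraries. Slc26a7 and Slc4a2, neighbours in that order, changed places between groups: in P5 cKO Slc26a7 stood at 458 ± 94.9 per kb and Slc4a2 at 339 ± 37.1, without overlap, while in P5 WT their values of 296 ± 128 and 319.7 ± 136 per kb overlapped.

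Slc4a5 (ENSMUSG00000068323, chr6:83219828-83304945 on the plus strand) encodes an electrogenic sodium bicarbonate cotransporter of fluid-moving epithelia. It had 7651, 10197 and 10621 normalised counts in P5 cKO, 6069.8, 6603 and 2166 in P5 WT, 2058, 1682 and 2135 in E15.5 cKO and 2345, 2066 and 1483 in E15.5 WT. The P5 libraries were higher than those of E15.5, except that P5 WT replicate 3 fell within the range of E15.5 WT. The log2 fold change between P5 and E15.5 was 2.27 ± 0.36 in cKO (SE; adjusted p = 0.000732, limma) and 1.20 ± 0.36 in WT (adjusted p = 0.0247). The WT call was lost without E15.5 WT replicate 2 or 3 or P5 WT replicate 1 or 2 (adjusted p = 0.0549 to 0.0961) and in a fit of only the 6 WT libraries (adjusted p = 0.0987). It held without P5 WT replicate 3, with a log2 fold change of 1.71.

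Slc4a10 (ENSMUSG00000026904, chr2:62046462-62326730 on the plus strand), a sodium-driven bicarbonate transporter of neurons and choroid plexus, stood at the floor in every one of the 6 E15.5 libraries. At P5 it had 188, 162 and 179.7 normalised counts in cKO, against 139, 50 and 111 in WT. All 3 cKO libraries were above all 3 WT libraries, 1 of which was still at the floor. Against the floor the mean P5 level was at least 3.54-fold higher in cKO (log2 fold change 1.80 ± 0.29, adjusted p = 0.00078, limma). In WT, where the library at the floor leaves no such bound, the log2 fold change was 0.86 ± 0.29 (adjusted p = 0.0386). The WT call was lost in 9 of the 12 fits that left out 1 library, namely each E15.5 library, P5 cKO replicate 3 and P5 WT replicates 1 and 3 (adjusted p = 0.0537 to 0.123). The WT log2 fold change was 0.56 without P5 WT replicate 1 and 1.30 without replicate 2. That call was also lost with library weights (0.13, adjusted p = 0.511), with the lens level as a covariate (adjusted p = 0.0726) and in a fit of only the 6 WT libraries (adjusted p = 0.135).

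The other Slc4 genes were called in 1 genotype each or not at all. Slc4a8, a sodium-driven chloride bicarbonate exchanger of neurons, had 173, 154 and 294 normalised counts in P5 WT and 83.6, 96.4 and 103 in E15.5 WT, a rise of 1.07 ± 0.26 on the log2 scale (adjusted p = 0.00872, limma). Its highest value lay in P5 WT replicate 3, the library with the highest photoreceptor level. With that level, centred within each age, as a covariate the rise was 1.09 (adjusted p = 0.00024). Such a covariate cannot adjust for the difference in photoreceptor level between ages. Slc4a11, known for its role in the corneal endothelium, was at the floor in every E15.5 library and had 101, 145 and 56.2 in P5 WT, at least 2.01-fold higher (adjusted p = 0.0398). That call was lost in 9 of 12 fits without 1 library, namely each E15.5 library, P5 cKO replicate 3 and P5 WT replicates 1 and 2 (adjusted p = 0.0546 to 0.14, log2 fold change 0.58 without P5 WT replicate 2), and with the replicate number as a block (adjusted p = 0.054) or only the 6 WT libraries (adjusted p = 0.0972). Slc4a2, the widespread chloride bicarbonate exchanger AE2, had 2492, 2856 and 3106 in P5 cKO and 1542, 1542 and 1794 in E15.5 cKO, a rise of 0.79 ± 0.28 (adjusted p = 0.0398). The groups did not overlap, yet the call was lost without any 1 of the E15.5 libraries or of P5 cKO replicates 2 and 3 (adjusted p = 0.0535 to 0.117), or with the skeletal muscle level as a covariate (adjusted p = 0.0609). Slc4a3, Slc4a4 and Slc4a7 passed in neither genotype. Slc4a4, the sodium bicarbonate cotransporter NBCe1 of the kidney proximal tubule, had 251, 293 and 312 in P5 cKO and 437, 527 and 133 in P5 WT, so that P5 WT held both its highest and its lowest P5 value. Slc4a7, another sodium bicarbonate cotransporter, stood at 1059 in P5 WT replicate 3 and between 195 and 471 in the other 5 P5 libraries.

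Both abundant anion exchangers of family Slc26 rose with age in cKO. Slc26a7 (ENSMUSG00000040569, chr4:14502430-14621805 on the minus strand), a chloride and anion transporter of kidney, stomach and thyroid, had 2368, 2047 and 3056 normalised counts in P5 cKO, 1881, 2128 and 817 in P5 WT, 815, 831 and 1038 in E15.5 cKO and 992, 855 and 787 in E15.5 WT. Slc26a11 (ENSMUSG00000039908, chr11:119355557-119381079 on the plus strand), a sulfate transporter also found in lysosomal membranes, had 437, 483 and 570.2, 354, 444 and 181, 167, 165 and 168 and 195, 191 and 169 in the same groups. In both genes P5 WT replicates 1 and 2 were well above E15.5, while replicate 3 lay inside the E15.5 WT range. The log2 fold change in cKO was 1.46 ± 0.31 for Slc26a7 (adjusted p = 0.00335, limma) and 1.56 ± 0.27 for Slc26a11 (adjusted p = 0.00108). In WT it was 0.76 ± 0.31 (adjusted p = 0.0723) and 0.72 ± 0.27 (adjusted p = 0.0548), neither called. The sulfate transporter Slc26a2 and the chloride-oxalate exchanger Slc26a6 were not called at either genotype, nor was Slc26a10, which stood at the floor in each E15.5 library. Slc26a1 was at the floor in all 12 libraries and was not tested.

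**Figure D3:**
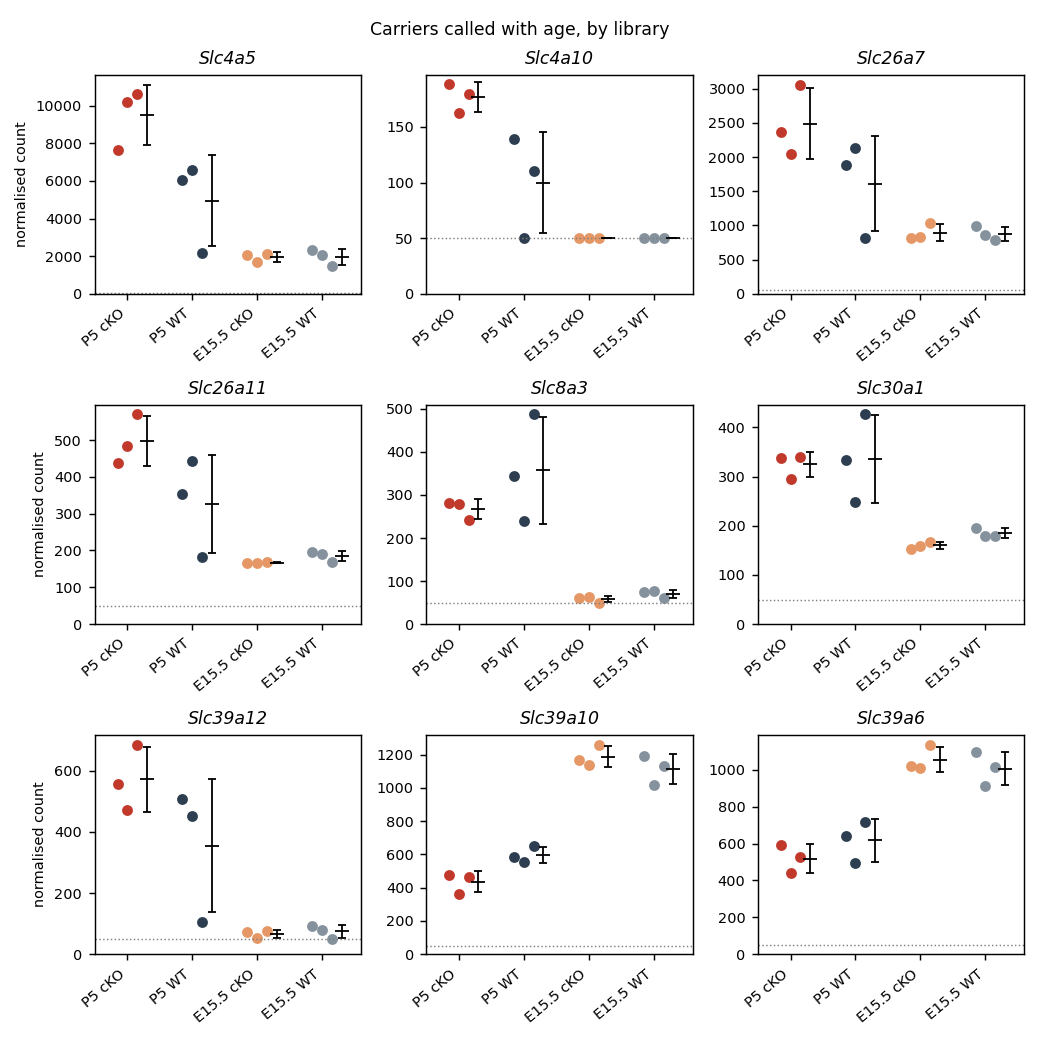
Normalised counts (vertical axes, linear from 0) of 9 carriers called with age, in each of the 3 libraries of 4 groups. Points are libraries, bars are mean ± SD, and the dotted line is the floor of 50. Slc39a10 and Slc39a6 are lower in every P5 library than in any E15.5 library, and P5 WT replicate 3, the rightmost of its group, is the lowest P5 value of Slc4a5, Slc26a7, Slc26a11 and Slc39a12 and the highest of Slc8a3 and Slc30a1.

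Carbonic anhydrases make bicarbonate from carbon dioxide. Of 12 tested genes of this family, 7 rose with age in WT and 0 fell, and in cKO 8 rose and 1 fell. The list was set by gene symbol, so not every gene on it need encode an active enzyme. Car8 is among those that rose in both genotypes, and Car11 among those that rose in cKO. For this list and the further gene lists below, 15% of all tested genes rose and 23.2% fell in WT. In cKO 17.6% of all tested genes rose and 26.1% fell. Car12, a membrane enzyme facing outward, had 2416, 3053 and 3906 normalised counts in P5 cKO, 2501, 2718 and 794 in P5 WT, 383, 365 and 319.5 in E15.5 cKO and 454, 397 and 267 in E15.5 WT. Its log2 fold change with age was 3.11 ± 0.41 in cKO (adjusted p = 0.000216, limma) and 2.27 ± 0.41 in WT (adjusted p = 0.00162). Car14, the membrane carbonic anhydrase known from the RPE surface, had 3866, 3900 and 6393 in P5 cKO and 3866, 4334 and 1458 in P5 WT, against 1132, 817 and 899 in E15.5 cKO and 1229.6, 882 and 771 in E15.5 WT. Car14 rose by 2.28 ± 0.38 in cKO (adjusted p = 0.000844) and by 1.62 ± 0.38 in WT (adjusted p = 0.00673). Car6, the secreted enzyme of saliva, stood at the floor in each E15.5 library and had 516, 268 and 476 in P5 cKO and 936, 601 and 154 in P5 WT. Car7, a cytosolic enzyme, rose likewise off the floor, to 174, 119 and 158 in P5 cKO and 169, 226 and 114 in P5 WT. P5 WT replicate 3 was the lowest P5 library for Car12, Car14, Car6 and Car7. Car13 fell in cKO, with 73.2, 50 and 50 in P5 cKO and 88.4, 78.5 and 100.4 in E15.5 cKO (adjusted p = 0.0416).

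The sodium-proton exchangers (Slc9) extrude acid or set the pH of endosomes. Slc9a9, an endosomal exchanger, had the largest age difference of the family, 0.54 ± 0.35 in WT (adjusted p = 0.242, limma), with P5 WT values of 231, 146 and 99.1 normalised counts that spread down to the E15.5 WT values of 106, 97 and 105. Of 7 tested regulators of these exchangers, 5 rose and 1 fell in cKO and 4 rose and 0 fell in WT. The scaffold Slc9a3r1 (NHERF1) had 1485, 2739.9 and 2949 in P5 cKO, against 841, 978 and 367 in P5 WT, with no overlap and no call (log2 fold change 1.77 ± 0.34, adjusted p = 0.0949). Between ages in cKO its rise was 2.43 ± 0.34 (adjusted p = 0.000361), while in WT it was 0.84 ± 0.34 (adjusted p = 0.0775). Ezr, which encodes ezrin, the linker of apical microvilli, had 7227, 7853 and 10807 in P5 cKO, 7077, 7853 and 3294 in P5 WT, 2368, 1826 and 1634 in E15.5 cKO and 2934, 2561 and 1812 in E15.5 WT and was called in both genotypes.

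Among the cation-chloride cotransporters (Slc12), which set cell volume and intracellular chloride, Slc12a9 was called in both genotypes. This family member without a settled substrate had 445, 509.8 and 548 normalised counts in P5 cKO, 389, 485 and 452 in P5 WT, 313, 329.6 and 332 in E15.5 cKO and 318, 328 and 268 in E15.5 WT. Every P5 library was above every E15.5 library, and the rise was 0.62 ± 0.13 in cKO (adjusted p = 0.00377, limma) and 0.54 ± 0.13 in WT (adjusted p = 0.00914). The potassium-chloride cotransporters Slc12a4, Slc12a5 and Slc12a7 were not called. Slc12a5, the neuronal one, had 80.7, 883 and 438 in P5 cKO, 105, 248 and 1095 in P5 WT, 193, 144 and 121 in E15.5 cKO and 110.5, 124 and 124 in E15.5 WT. Replicate 1 of each P5 genotype was below every E15.5 library, and P5 WT replicate 3 was the highest. The order of the 6 P5 libraries was that of the mean log2 value of 22 inner retinal neuron markers, 6.98, 9 and 8.36 in P5 cKO and 7.12, 7.71 and 9.43 in P5 WT. Its age difference in WT was 1.35 ± 0.88 (adjusted p = 0.25). With the photoreceptor level, centred within each age, as a covariate it was 1.43 (adjusted p = 0.000107). Without P5 WT replicate 3 it was 0.44 (adjusted p = 0.68), and without replicate 1 it was 2.12 (adjusted p = 0.0839). Slc12a8 was above the floor in 2 libraries, both P5 WT, and was not tested.

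The list of kinases that regulate these cotransporters, with partner proteins such as Cab39 and Cul3, split. Of 9 genes tested, kinases and partners together, Wnk4 rose and Wnk1 fell in WT. In cKO Wnk4 and Stk39 rose and Wnk1, Wnk3 and Oxsr1 fell. Wnk4 had 207, 306 and 299 normalised counts in P5 cKO, against 702, 738 and 326 in P5 WT, with 97.3, 128 and 125 in E15.5 cKO and 123, 128 and 134 in E15.5 WT. All 3 P5 cKO libraries were below all 3 P5 WT libraries, but the genotype difference of -1.05 ± 0.29 was not called (adjusted p = 0.318, limma). Wnk1 had 2566, 2102 and 2181 in P5 cKO and 2457, 2332 and 2617 in P5 WT, all below the E15.5 values of 3277, 3558 and 3813 in cKO and 3495, 3306 and 3322 in WT.

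Sodium-potassium pump genes rose in both genotypes, 7 of 12 tested and the same 7 in each, among them Atp1b1, Atp1b2, Fxyd1 and Fxyd5, with 0 lower. Atp1b1, the beta subunit common in epithelia, had 3819, 4744 and 7324 normalised counts in P5 cKO, 2629.8, 2824 and 1548 in P5 WT, 932, 711 and 666 in E15.5 cKO and 774, 596 and 432 in E15.5 WT. All 3 P5 cKO libraries were above all 3 P5 WT libraries, and the genotype difference of 1.18 ± 0.30 was not called (adjusted p = 0.26, limma).

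The sodium-calcium exchanger Slc8a3 had the lowest adjusted p of the carriers that rose, in each genotype. Sodium-calcium exchangers push calcium out of cells in return for sodium, and Slc8a3 (ENSMUSG00000079055, chr12:81197915-81333180 on the minus strand) is the form known from skeletal muscle and brain. It had 282, 278 and 242 normalised counts in P5 cKO, 345, 239 and 488 in P5 WT, 60.3, 63.2 and 50 in E15.5 cKO and 74.8, 76.3 and 59.7 in E15.5 WT. Every P5 library was above every E15.5 library, 1 of which was at the floor. The log2 fold change was 2.19 ± 0.23 in cKO (adjusted p = 7.07e-05, limma) and 2.28 ± 0.23 in WT (adjusted p = 6.29e-05). Leaving out any 1 library kept both calls, with log2 fold changes of 2.09 to 2.26 in cKO and 2.03 to 2.54 in WT. Summed skeletal muscle markers, 15 in the table, ranged from 31852 to 80908 in P5 cKO, 16168 to 74435 in P5 WT, 51261 to 82089 in E15.5 cKO and 51846 to 95820 in E15.5 WT. With that list's level, centred within each age, as a covariate the rise was 2.18 in cKO and 2.29 in WT. That covariate cannot adjust for a difference in muscle level between ages. The brain form Slc8a2 had 253, 269.5 and 282 in P5 cKO, 250.3, 221 and 259.8 in P5 WT, 307, 315 and 275 in E15.5 cKO and 226, 264 and 314 in E15.5 WT, and the heart form Slc8a1 stayed between 50 and 78 in every library. Neither was called.

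Slc24a3, a potassium-dependent sodium-calcium exchanger, had 403, 802 and 666 normalised counts in P5 cKO, 205, 213 and 643 in P5 WT, 268, 293 and 293 in E15.5 cKO and 248, 318 and 231 in E15.5 WT. P5 WT replicate 3 was inside the P5 cKO range and the other P5 WT libraries were below every E15.5 library. Its rise with age in cKO was 1.07 ± 0.40 (adjusted p = 0.0488, limma), lost without any 1 of the E15.5 libraries or of P5 cKO replicates 2 and 3 (adjusted p = 0.0626 to 0.152), with no filter on low values (adjusted p = 0.0586) or with robust variances and no trend (adjusted p = 0.052). Of 12 calcium pump and store genes 3 rose and 1 fell in each genotype, where 38.2% of all tested genes were called in WT and 43.7% in cKO. Atp2b2, a plasma membrane calcium pump, had 727, 1470.5 and 1430.3 in P5 cKO, 781, 1029 and 634 in P5 WT, 166, 87.2 and 65.5 in E15.5 cKO and 170.5, 126 and 91.3 in E15.5 WT. Atp2a3, a pump of the endoplasmic reticulum, had 380.3, 204 and 313 in P5 cKO and 442, 331 and 147 in P5 WT, with every E15.5 library at or close to the floor. Letm1, a mitochondrial ion exchanger, was called higher in both genotypes. The mitochondrial calcium uniporter Mcu fell, with 549.8, 666 and 515 in P5 cKO, 582, 479 and 536 in P5 WT, 894, 826 and 835 in E15.5 cKO and 760.1, 982 and 809 in E15.5 WT.

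The phosphate importers split between genotypes in their calls, though the difference between genotypes was not called for either. Slc20a2 (PiT-2), whose loss causes brain calcification in humans, had 1830.1, 1256 and 1439 normalised counts in P5 cKO, 2081, 1491 and 821 in P5 WT, 766, 910.4 and 970.5 in E15.5 cKO and 977, 1054 and 832 in E15.5 WT. It rose in cKO by 0.76 ± 0.28 (adjusted p = 0.0486, limma), a call lost in 10 of 12 fits without 1 library, namely all but P5 WT replicates 1 and 3 (adjusted p = 0.0533 to 0.14), and under 5 further alternatives, among them a pseudocount of 50 (adjusted p = 0.0502) and the lens level as a covariate (log2 fold change 0.57, adjusted p = 0.109). Slc20a1 (PiT-1), its widely expressed relative, had 396, 678 and 572 in P5 cKO, 577, 711 and 822 in P5 WT, 467, 452 and 463 in E15.5 cKO and 415, 409 and 465 in E15.5 WT. It rose in WT, without overlap, by 0.70 ± 0.19 (adjusted p = 0.0144), and the adjusted p was 0.0505 without E15.5 WT replicate 2. The interaction was -0.48 ± 0.27 for Slc20a1 and 0.24 ± 0.40 for Slc20a2 (adjusted p = 1 for both). Among 8 tested genes of phosphate balance, Alpl and Ank rose and Pth1r, Stc1 and Stc2 fell in both genotypes, and Phex rose in WT. Alpl, the phosphatase that frees phosphate from pyrophosphate, had 2345, 1293 and 1431 in P5 cKO and 2984, 2189 and 1249 in P5 WT, against 258, 506 and 220 in E15.5 cKO and 264, 235 and 202 in E15.5 WT.

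Of 7 genes of the zinc exporter family (Slc30), only Slc30a1 was called, in both genotypes. Slc30a1 (ENSMUSG00000037434, chr1:191906767-191913247 on the plus strand) is the zinc exporter of the plasma membrane and a classical target of MTF1, the zinc sensor that binds metal response elements. It had 339, 296 and 339.7 normalised counts in P5 cKO, 334, 248 and 427 in P5 WT, 153, 159.8 and 167 in E15.5 cKO and 196, 179 and 179 in E15.5 WT. Every P5 library was above every E15.5 library, and all 3 E15.5 cKO libraries were below all 3 E15.5 WT libraries. The rise with age was 1.02 ± 0.18 in cKO (adjusted p = 0.0013, limma) and 0.83 ± 0.18 in WT (adjusted p = 0.0048), and it kept its call without any 1 library.

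Genes of metallothioneins, which are zinc-binding proteins, also rose with age. Mt1 and Mt2 are known as classical targets of MTF1, and MTF1 control was not tested here. Mt1 had 2485, 6722 and 4916 normalised counts in P5 cKO, 2487, 2954 and 1174 in P5 WT, 339, 252 and 256 in E15.5 cKO and 257, 329.5 and 301 in E15.5 WT, a rise of 3.95 ± 0.38 in cKO (adjusted p = 3.91e-05, limma) and 2.80 ± 0.38 in WT (adjusted p = 0.000338). Mt2 had 876, 2484 and 1648 in P5 cKO and 810.2, 962 and 374 in P5 WT, against 332, 284 and 226 in E15.5 cKO and 228, 308 and 288 in E15.5 WT, though 73.5% of its exon bases overlap another gene. Mt3, the brain form, had 682, 1827 and 1609 in P5 cKO and 669, 1277 and 373 in P5 WT and lay at or near the floor at E15.5. These 3 of the 5 tested genes of zinc buffering and sensing were called in both genotypes. Mtf1 itself was not called, with 245, 275 and 262 in P5 cKO, 240.1, 208 and 228 in P5 WT, 196, 226 and 241 in E15.5 cKO and 218, 201 and 222 in E15.5 WT. P5 WT replicate 3 was the lowest P5 library for all 3 metallothioneins and the highest for Slc30a1.

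**Figure D4:**
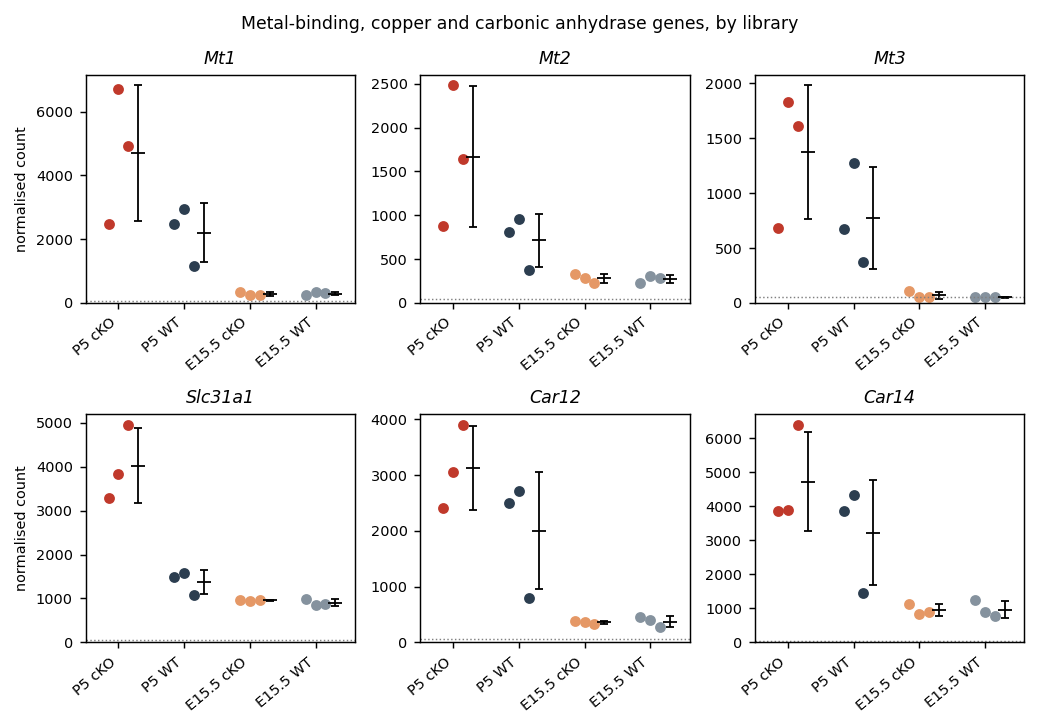
Normalised counts (vertical axes, linear from 0) of 3 metallothioneins, the copper importer Slc31a1 and 2 carbonic anhydrases in each library of 4 groups. Points are libraries, bars are mean ± SD, and the dotted line is the floor of 50. Slc31a1 is the one gene of the panel called between cKO and WT at P5, and its 3 cKO libraries all lie above its 3 WT libraries.

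Promoter windows are printed for Slc30a1, which rose beside the metallothioneins, for Slc30a4, and for the zinc importer with the largest rise in cKO. Slc30a4 is one of 3 Slc30 genes with the same motif as Slc30a1 that were not called with age (beside Slc30a5 and Slc30a10). The windows are RefSeq sequences of build GRCm38.p6, 250 bases before to 50 after the start. They run 5′ to 3′ on the gene's strand, with matched motifs in capitals. In Slc30a1 (chr1:191906531-191906830, plus strand) and Slc30a4 (chr2:122702614-122702913, minus strand) the capitals mark metal response element cores, TGCACNC or TGCGCNC on either strand, here all on the opposite strand. In Slc39a12 (chr2:14388148-14388447, plus strand) they mark TAATCC, the motif of OTX-type homeodomain proteins such as OTX2, an RPE regulator.
Slc30a1: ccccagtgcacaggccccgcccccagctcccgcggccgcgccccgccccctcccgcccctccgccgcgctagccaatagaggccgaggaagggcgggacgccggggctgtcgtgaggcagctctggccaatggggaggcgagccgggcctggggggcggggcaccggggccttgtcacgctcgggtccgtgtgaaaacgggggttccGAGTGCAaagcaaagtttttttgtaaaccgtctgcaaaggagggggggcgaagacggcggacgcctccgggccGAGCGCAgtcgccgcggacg
Slc30a4: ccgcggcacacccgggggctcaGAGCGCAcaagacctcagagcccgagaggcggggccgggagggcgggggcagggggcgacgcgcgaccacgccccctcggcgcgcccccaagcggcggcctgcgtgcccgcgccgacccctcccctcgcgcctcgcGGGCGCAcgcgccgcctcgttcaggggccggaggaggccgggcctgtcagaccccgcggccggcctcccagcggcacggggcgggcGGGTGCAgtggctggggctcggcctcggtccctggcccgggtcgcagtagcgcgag
Slc39a12: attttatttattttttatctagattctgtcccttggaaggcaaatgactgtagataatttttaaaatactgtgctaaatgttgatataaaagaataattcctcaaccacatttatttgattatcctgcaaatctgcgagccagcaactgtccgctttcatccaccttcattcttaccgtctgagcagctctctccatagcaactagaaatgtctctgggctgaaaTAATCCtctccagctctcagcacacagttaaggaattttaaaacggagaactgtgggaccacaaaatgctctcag
The Slc30a1 window holds 2 cores, one 43 bases before the start and one after it, and the Slc30a4 window holds 3, at 228, 92 and 6 bases before the start. The Slc39a12 window holds TAATCC 25 bases before the start. Of 42 carriers with a window, 45.2% held a metal response element core, against 25.7% of the 32851 windows in the table, and 7.14% held TAATCC, against 7.06%. The SOX-type motif, ACAAAG or ACAATG on either strand, was in 11.9% of the carrier windows, against 28.6% of all windows. For each carrier only the window nearest the annotated gene start was counted, up to 32924 bases from it (Slc39a10). All windows include several for some genes, so these shares are not like for like and show no enrichment or depletion. A match of letters is a description and shows no binding.

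The remaining Slc30 genes were not called. Slc30a4, which loads zinc into vesicles and is mutated in the lethal milk mouse, had 593, 536 and 598 normalised counts in P5 cKO, 709, 514 and 595 in P5 WT, 494, 488 and 490.3 in E15.5 cKO and 526, 538 and 536 in E15.5 WT. Slc30a5, Slc30a6 and Slc30a7 supply zinc to the secretory pathway, and Slc30a9 is a mitochondrial zinc transporter. Slc30a5 was the most abundant of the family per kb, with a mean of 114 per kb over 12 libraries. Slc30a10, known as a manganese exporter in humans and mice, had 55.3, 81.3 and 98.1 in P5 cKO and 50, 96.3 and 300.3 in P5 WT, with every E15.5 library under 60. Its age difference in WT was 1.16 ± 0.49 (adjusted p = 0.0876, limma), and 1.74 without P5 WT replicate 1 (adjusted p = 0.00808). Without P5 WT replicate 3, its highest library, it was 0.46 (adjusted p = 0.201).

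The zinc importers (Slc39) held the only carriers that fell and, in cKO, the carrier with the largest rise. Of 12 tested, 3 rose and 2 fell in cKO, and 1 rose and 2 fell in WT. Slc39a12 (ENSMUSG00000036949, chr2:14388316-14494977 on the plus strand), a zinc importer best known from brain, had 558, 472 and 685 normalised counts in P5 cKO, 508, 450.2 and 107 in P5 WT, 71.3, 52.2 and 75.4 in E15.5 cKO and 93.7, 80.3 and 51.2 in E15.5 WT. P5 values were above E15.5 in every library, with P5 WT replicate 3 close to the highest E15.5 WT value. The log2 fold change was 3.09 ± 0.50 in cKO (adjusted p = 0.00076, limma), or 8.51-fold, and 1.98 ± 0.50 in WT (adjusted p = 0.0102). Without P5 WT replicate 3 the WT value was 2.70 (adjusted p = 4.17e-05). The WT call was lost in a fit of only the 6 WT libraries (adjusted p = 0.0618).

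Slc39a10 (ENSMUSG00000025986, chr1:46807544-46892852 on the minus strand) and Slc39a6 encode closely related zinc importers of the plasma membrane that form a complex. Slc39a10 had 479, 364 and 465 normalised counts in P5 cKO, 583, 556 and 651 in P5 WT, 1167, 1139.9 and 1258 in E15.5 cKO and 1192, 1017 and 1134 in E15.5 WT. Slc39a6 had 592, 439.6 and 525, 640.5, 492 and 719, 1019.9, 1009.9 and 1135 and 1095, 912 and 1013 in the same groups. In both genes every P5 library was below every E15.5 library. Slc39a10 fell by 2.74-fold in cKO (log2 fold change -1.45 ± 0.12, adjusted p = 1.78e-05, limma) and by 1.87-fold in WT (-0.90 ± 0.12, adjusted p = 0.000343). Slc39a6 fell by 2.04-fold in cKO (-1.03 ± 0.16, adjusted p = 0.000506) and by 1.65-fold in WT (-0.72 ± 0.16, adjusted p = 0.00468). All 4 calls held without any 1 library.

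The other Slc39 genes called rose in cKO. Slc39a4, the intestinal zinc importer lost in acrodermatitis enteropathica, stood at the floor in each of the 6 E15.5 libraries and had 105, 182 and 220.3 normalised counts in P5 cKO and 196, 142 and 50 in P5 WT, where replicate 3 was at the floor too. Its P5 mean in cKO was at least 3.38-fold higher (log2 fold change 1.67 ± 0.42, adjusted p = 0.00912, limma), and in WT the test gave 1.14 ± 0.42 (adjusted p = 0.0539). Slc39a13, a zinc transporter of the Golgi needed for connective tissue in humans and mice, had 1329, 1336 and 1332 in P5 cKO, against 1071, 1177 and 795 in P5 WT, with 882, 831 and 912 in E15.5 cKO and 889.5, 834 and 857 in E15.5 WT. It rose in cKO by 0.61 ± 0.13 (adjusted p = 0.00356), and the 3 P5 cKO libraries differed by less than any other group of this gene. Slc39a1, a zinc importer of the plasma membrane and the most abundant Slc39 gene per kb, had 2251, 1550.1 and 2029 in P5 cKO, 2100.4, 2102 and 1106 in P5 WT, 1582, 1390.3 and 1479 in E15.5 cKO and 1548, 1569.5 and 1580.4 in E15.5 WT and was not called. Slc39a3, Slc39a8, Slc39a9, Slc39a11 and Slc39a14 were not called either. Slc39a7, the zinc transporter of the endoplasmic reticulum, had 97.3, 50 and 53.2 in P5 cKO and 71.3, 50 and 52.7 in P5 WT, and 80.7% of its exon bases lie in an overlapping gene on the same strand, so its level is uncertain.

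Magnesium, iron and copper genes completed the group. Of the magnesium transporters, Slc41a3 had 255, 135 and 169.7 normalised counts in P5 cKO, 318, 168 and 80.3 in P5 WT, 63.3, 90.4 and 76.2 in E15.5 cKO and 87.3, 84.1 and 90.4 in E15.5 WT. It rose in cKO by 1.24 ± 0.41 (adjusted p = 0.0315, limma), a call lost without any 1 of the E15.5 cKO libraries or of P5 cKO replicates 1 and 3 (adjusted p = 0.0521 to 0.0972) or with the lens level as a covariate (adjusted p = 0.0724). Slc41a1, the most abundant of the family per kb (128 per kb over 12 libraries), and Slc41a2 were not called. Of 12 other magnesium genes, Nipal3 rose in both genotypes, Cnnm2 rose in WT and Mmgt1 fell in cKO. Of 16 iron genes, 6 rose and 3 fell in WT and 5 rose and 3 fell in cKO. The ferroxidase gene Cp had 824, 883 and 1322 in P5 cKO and 632, 1026 and 1415 in P5 WT, against 72.7, 75.4 and 123 in E15.5 cKO and 157, 152 and 168 in E15.5 WT. Trf, which encodes the iron carrier transferrin, stood at the floor in each E15.5 library and had 345, 803 and 575 in P5 cKO and 636, 816 and 249 in P5 WT, though 63.5% of its exon bases overlap another gene. Every P5 library was above every E15.5 library in these genes. Steap3, the ferrireductase of endosomes, had 1644, 978 and 822 in P5 cKO and 1210.3, 960.1 and 672 in P5 WT, against 116, 124 and 123 in E15.5 cKO and 143, 165 and 108 in E15.5 WT. Slc11a1, a metal transporter of macrophages, fell, with 142, 165 and 159.8 in P5 cKO, 219.6, 339.6 and 94.7 in P5 WT, 441, 353 and 622 in E15.5 cKO and 508, 401 and 347 in E15.5 WT. Summed macrophage markers, 13 in the table, ranged from 3696 to 6947 in P5 cKO, 2614 to 7546 in P5 WT, 2779 to 3030 in E15.5 cKO and 2600 to 3226 in E15.5 WT.

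The copper importer Slc31a1, a gene outside the carrier families but on the copper list, was the one gene of all 10 partner lists called for genotype. It had 3290.3, 3832 and 4960.4 normalised counts in P5 cKO, against 1479, 1575 and 1069.5 in P5 WT, a log2 fold change of 1.55 ± 0.17 (adjusted p = 0.00338, limma). At E15.5 it had 963, 937 and 965 in cKO and 987, 859 and 862 in WT, a difference of 0.08 ± 0.17 (adjusted p = 1). All 3 P5 cKO libraries were above all P5 WT libraries, and every P5 library was above every E15.5 library. Its relative Slc31a2 had 262, 230 and 254 in P5 cKO and 222, 286 and 179 in P5 WT, against 162, 153 and 153 in E15.5 cKO and 117, 139.8 and 144 in E15.5 WT, and was called with age in both genotypes.

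Set by genotype label at P5, no carrier passed, and 8 of 51 had an unadjusted p under 0.05 by limma, a share of 15.7%, against 7.68% of all tested genes. They were Slc4a3, Slc4a5, Slc4a10, Slc24a3, Slc26a7, Slc26a11 and Slc39a13, higher in cKO, and Slc39a10, lower. The median difference over the carriers was 0.03 on the log2 scale and over all genes -0.02. In 4 carriers the 3 cKO libraries did not overlap the 3 WT libraries, a share of 7.84%, against 6.18% of all tested genes. Slc4a5 was higher in cKO by 1.08 ± 0.36 (adjusted p = 0.454, limma), and by 0.57 without P5 WT replicate 3. Slc4a10 was higher by 0.94 ± 0.29 (adjusted p = 0.414), and by 0.50 without P5 WT replicate 2. Slc39a13 was higher by 0.41 ± 0.13 (adjusted p = 0.414). Slc39a10 was lower, with -0.46 ± 0.12 (adjusted p = 0.3). An exact permutation test of 3 libraries against 3 cannot go below p = 0.1, which each of the 4 reached. RPE markers, 16 in the table, had a mean log2 value of 11.09, 11.34 and 11.64 in P5 cKO and 12.02, 12.09 and 10.83 in P5 WT. That level was chosen as a covariate after seeing the data. With it 5 carriers were called, all higher in cKO: Slc4a5, Slc26a7, Slc26a11, Slc39a12 and Slc39a13. Of the RPE markers, Rpe65 was itself called lower in P5 cKO, where it was at the floor in every library. Without P5 WT replicate 3 only Slc24a3 was called, and without P5 cKO replicate 1 only Slc4a3.

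**Figure D5:**
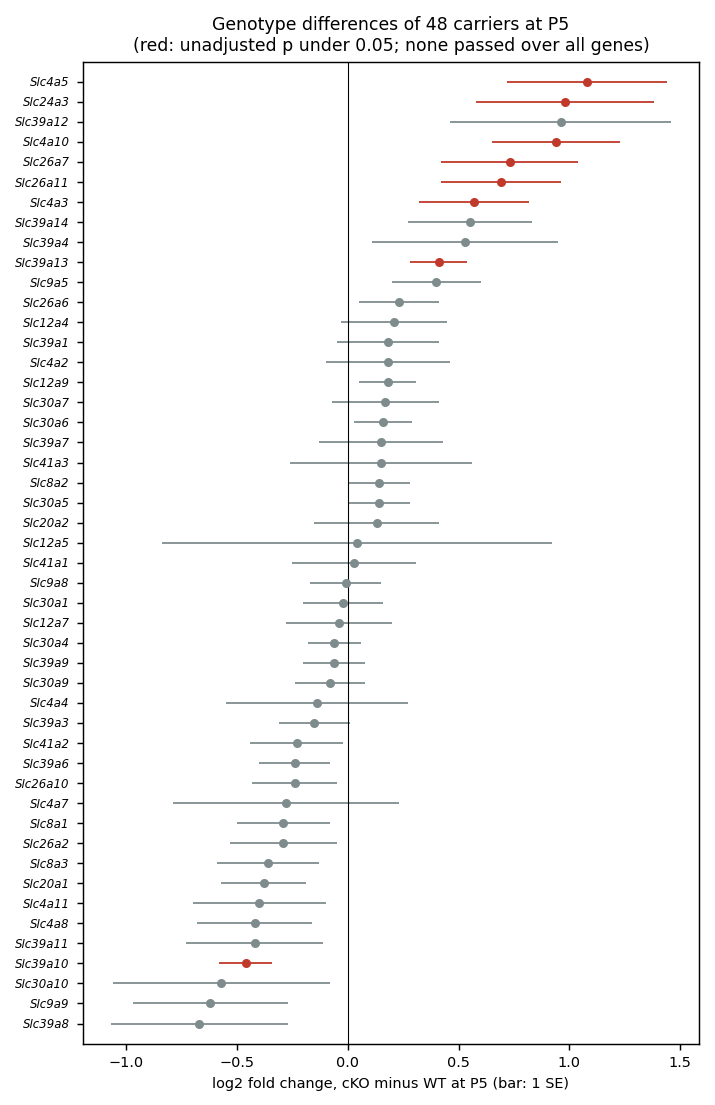
Log2 fold change between cKO and WT at P5 (horizontal axis) of 48 tested carriers, sorted, with bars of 1 SE from limma. Red points had an unadjusted p under 0.05, and 0 of the 48 passed after adjustment over all genes. The range ran from Slc39a8 at -0.67 to Slc4a5 at 1.08.

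At E15.5, 0 of 51 carriers had an unadjusted p under 0.05 in limma, against 0.362% of all tested genes, and 0 were called. The fit used 1 spread per gene for all 12 libraries, and P5 libraries spread more. Median SD of carriers on the log2 scale was 0.101 in E15.5 cKO and 0.11 in E15.5 WT, against 0.268 in P5 cKO and 0.494 in P5 WT. The E15.5 p-values and SEs therefore include the wider P5 spread, and these counts do not show that the genotypes were alike. Log2 differences ran from -0.28 to 0.33, with medians of 0 over the carriers and 0 over all genes. In 5 carriers the libraries did not overlap, which is 9.8% of carriers, against 5.1% of all tested genes. All 5 were lower in cKO, where 2.99% of all genes were lower without overlap: Slc26a11, Slc30a1, Slc30a4, Slc30a5 and Slc39a11. Slc30a1 had 153, 159.8 and 167 normalised counts in E15.5 cKO, against 196, 179 and 179 in E15.5 WT, a difference of -0.20 ± 0.18 (adjusted p = 1). Slc30a4 differed by -0.12 ± 0.12, Slc30a5 by -0.10 ± 0.14, Slc26a11 by -0.15 ± 0.27 and Slc39a11 by -0.15 ± 0.31, and none was called.

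Whether age acted differently in the genotypes was tested as an interaction, the age difference in cKO minus that in WT. No carrier was called, where 0.0592% of all genes were, and 2 of 51 had an unadjusted p under 0.05 by limma, Slc4a10 and Slc39a10, against 2.65% of all genes. The interaction was 0.94 ± 0.41 for Slc4a10, 0.84 ± 0.38 for Slc26a11 and 0.39 ± 0.18 for Slc39a13 on the positive side. On the negative side it was -0.55 ± 0.17 for Slc39a10, -0.48 ± 0.27 for Slc20a1 and -0.42 ± 0.29 for Slc8a1. All 6 had an adjusted p of 1, so the calls made in 1 genotype and not in the other are not shown to differ between genotypes. The age and genotype comparisons share the P5 libraries.

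The carriers varied more among P5 WT libraries than in any other group. Their median SD on the log2 scale was 0.268 in P5 cKO, 0.494 in P5 WT, 0.101 in E15.5 cKO and 0.11 in E15.5 WT, against 0.232, 0.317, 0.116 and 0.105 over all tested genes. P5 WT replicate 3 was the lowest of the 6 P5 libraries for 20 of 51 carriers, a share of 39.2% against 27.9% of all genes, and the highest for 14, a share of 27.5% against 30.3%. It also had the highest photoreceptor level, the lowest RPE level of the P5 libraries (12.02, 12.09 and 10.83 in P5 WT) and the lowest lens level (8.72, 8.29 and 9.15 in P5 cKO and 7.40, 8.67 and 6.10 in P5 WT). Without it 21 carriers were called with age in WT in place of 12, and without E15.5 WT replicate 2 there were 7. With the photoreceptor level, centred within each age, as a covariate, 23 carriers were called with age in WT. That covariate cannot adjust for the difference in photoreceptor level between ages.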

How the data were processed

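RNA sequencing libraries of mouse RPE, 12 in 4 groups of 3, were assigned to groups by their titles. Alignment with TopHat2 2.0.10, counting with HTSeq and the mm10 genome are named in the submitters' processing notes. Each deposited signal value is a gene's count in 1 library that the authors quantile-normalised and, where it was under 50, raised to 50, as the name of the deposited table states. All columns hold one distribution, so depth is unknown, no counting error can be attached to a value, and count models could not be used. The strand setting is not given in the sources used here, so genes that overlap others are uncertain.

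Genes above 50 in at least 3 libraries (13523 of 13942) were fitted as log2(value + 1) with 1 mean per group over all 12 libraries in limma 3.58.1 (R 4.3.3), with moderated variances and a mean-variance trend. Tests were two-sided, with Benjamini-Hochberg adjustment over all 13523 genes, and calls needed an adjusted p under 0.05. All adjusted p-values printed come from limma. Each gene has 1 spread shared by all groups. Where P5 libraries spread more, this makes E15.5 tests stricter and P5 tests more lenient. Fold changes are on the log2(value + 1) scale with the model's SE; against a group at the floor the ratio of the mean to 50 is a lower bound where no library of the other group is at the floor. The fit was tested on simulated data with the same spread in all groups for each gene, so that test does not cover the unequal spread of these libraries. Levels between genes were compared per kilobase of exon (GENCODE M21, GRCm38), with 53 of 53 carriers matched. Promoters came from RefSeq (GRCm38.p6), with a window for 42 carriers.

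Named with values were, per comparison, the called carriers, the carriers whose libraries did not overlap by genotype, the 6 with the most extreme interaction tests, the most abundant and most age-changed member of each family, and up to 4 called genes per partner list; some further genes were named to complete a family. A few genes the rule names are not reported here or drawn. The members and lists were chosen with earlier results of these data known. Alternatives changed the pseudocount, the filters, the variance model, library weights, centring, the samples fitted, the replicate block and marker covariates, and left out each library in turn. Marker covariates were centred within each age.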

Additional observations from a re-analysis of the deposited data

How the results depend on the processing

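The number of carriers called by genotype at P5 was 0 as reported and under most alternatives. It was 1 with a photoreceptor covariate (Slc24a3) and 5 with an RPE marker covariate, which was chosen after seeing the data and whose markers themselves differ by genotype. Leaving out each library in turn gave 0 to 1. At E15.5 it was 0 under every alternative, and so was the interaction. With age in WT the number was 12. It was 33 with library weights, 23 with the photoreceptor covariate, 19 with the RPE covariate, 24 without the P5 library of highest photoreceptor level in each genotype (also chosen after seeing the data), and 7 to 21 without each library in turn. With age in cKO it was 16, and 12 to 20 without each library in turn. The causes of these differences were not tested. Marker covariates were centred within each age, so none can adjust for marker levels that differ between ages. With the replicate number as a block, 11 carriers were called with age in WT and 16 in cKO, and 0 by genotype at either age. Nothing in the labels pairs the libraries, so the main fit held no block. Correlations of deviations from group means were -0.336 to 0.783 over 18 same-numbered pairs, against -0.742 to 0.706 over 36 pairs of different number. The highest, 0.783, was between P5 WT replicate 1 and P5 cKO replicate 1. These overlapping ranges cannot decide whether same-numbered libraries share a batch. Of 28 named calls, 18 were never lost and 0 reversed. Of 18 named values that were not called, 3 changed sign: Slc26a11 at E15.5 was 0.29 and Slc30a5 at E15.5 was 0.07 with the RPE covariate, and the interaction of Slc8a1 was 0.02 with library weights. Depth is unknown, and values at the floor hide differences below 50, which limits Slc4a10, Slc4a11 and Slc39a4 at E15.5.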
